A study of Homo sapiens with 9 samples.

Results

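The genes described here encode the semaphorins, plexins, neuropilins, netrins and UNC5 receptors, families named for their work in steering growing axons. They were taken by symbol from the tables of all genes: any symbol that starts with SEMA, PLXN, NTN or UNC5 followed by a number or letter, together with NRP1 and NRP2. PLXNA2 and 6 antisense RNAs that carry such letters were left out. The choice used no measured value and gave 42 of the 57733 genes, namely 20 semaphorins, 8 plexins, 2 neuropilins, 6 netrins and netrin G genes, 4 UNC5 receptors, UNC5CL and UNC50. UNC50 shares only the letters of the UNC5 receptors and is not a netrin receptor. Of these genes 40 had enough reads to be tested, while NTN3 and SEMA3G did not.

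Nascent RNA had been sampled in PANC-1, an established line from a human pancreatic ductal carcinoma. The lines were KO C22 and KO C28, each a clone made with CRISPR/Cas9 against KDM6A (UTX, a histone H3K27 demethylase), and WT, a control that had received no guide RNA. Bru-seq captured RNA made during 30 min of labelling with 2 mM bromouridine (2 libraries per line), and BruUV-seq did the same after 100 J/m2 of UV light (1 library per line). All lines share the PANC-1 background, each knockout line is a single clone, and nothing in the labels says that replicates were separate cultures, so the p-values here cover library-to-library spread alone, which may be technical.

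Semaphorins are ligands that are secreted (class 3), membrane-bound (classes 4 to 6) or anchored by a lipid (class 7). They bind plexins, whose cytoplasmic part acts on small GTPases and the cytoskeleton, and most class 3 members need a neuropilin as the ligand-binding co-receptor. Netrins are laminin-related secreted ligands that attract through DCC and NEO1 and repel through UNC5 receptors. In pancreatic carcinoma these ligands and receptors are known from the nerves, vessels and tumour cells of the tissue.

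KDM6A itself gave 5304 and 9618 reads in KO C22 Bru-seq, 5284 and 532 in KO C28 Bru-seq and 7036 and 6726 in WT Bru-seq, with 1622, 3577 and 4826 in BruUV-seq of KO C22, KO C28 and WT. Against WT the log2 fold change of KDM6A was -0.01 in KO C22 and -0.35 in KO C28, with a standard error (SE) of 0.57 in each. A small CRISPR lesion cannot be seen in reads summed over the gene body. The libraries held 5.64 to 31.1 M reads in genes. Bru-seq KO C28 replicate 2 stood apart, with the fewest reads, 46.5% of its reads outside genes against 9.93% to 20.01% elsewhere, and gene-wise correlations with the rest between 0.65 and 0.79, while the rest reached 0.80 to 0.95 among themselves. The background of each library was taken as the 25th percentile of RPKM (reads per kb of gene and per M mapped reads) over genes of 100 kb or more. It was 0.0245 and 0.0017 RPKM in KO C22 Bru-seq, 0.00755 and 0.0627 RPKM in KO C28 Bru-seq and 0.00711 and 0.00322 RPKM in WT Bru-seq, and 0.00274, 0.00317 and 0.00164 RPKM in BruUV-seq of KO C22, KO C28 and WT. Long genes with few reads therefore read highest in Bru-seq KO C28 replicate 2 and KO C22 replicate 1. Of the 7 ductal epithelial markers, KRT8, KRT18, KRT19 and SOX9 carried most of the summed RPKM, which was 16.8 to 69.8 in KO C22, 53.5 to 246 in KO C28 and 32.2 to 77.7 in WT. The 5 endothelial markers summed to 0.0093 to 0.0268 RPKM in all libraries but Bru-seq KO C28 replicate 2 (0.243), and the 6 neuronal and Schwann cell markers to 0.0246 to 0.133 RPKM outside that library (0.402). None of these endothelial, neuronal and Schwann markers exceeded 2 times the background in every library, and 1 endothelial marker had 0 reads throughout. The 5 fibroblast markers summed to 0.225 to 1.70 RPKM in KO C22, 0.182 to 0.917 in KO C28 and 0.0619 to 0.275 in WT. Most of this was COL1A1, with 1.68 RPKM of the highest KO C22 sum and 0.867 of the highest KO C28 sum. The 5 immune markers summed to 0.69 to 3.37 RPKM, nearly all of it CD68 with at most 9 reads, and the 4 acinar and islet markers to at most 0.208 RPKM. None of the 7 ductal markers passed the test described below. In KO C22 against WT, EPCAM and CDH1 had log2 fold changes of -2.27 (SE 0.57) and -3.33 (SE 0.86), and the other 5 lay between -1.01 and 0.19. In KO C28 the keratin genes KRT7, KRT8, KRT18 and KRT19 lay between 1.69 and 2.31, while EPCAM, CDH1 and SOX9 were at -1.14 (SE 0.54), -1.14 (SE 0.78) and -0.26 (SE 0.41). By CPM (scaled reads per M reads in genes) each keratin was highest in Bru-seq KO C28 replicate 2. By RPKM, KRT8 was higher in KO C28 BruUV-seq (12.4) than in that library (11.1). Without Bru-seq KO C28 replicate 2 the keratins lay between 0.49 and 1.43.

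Most members of these families were transcribed at a low rate in PANC-1. By mean RPKM in WT Bru-seq, the level per gene length, SEMA4B led with 13.0 ± 2.07 (SD, n = 2). UNC50 at 3.70 ± 0.50 and SEMA3C at 3.44 ± 0.10 followed and did not differ beyond their spread, and NRP1 came after them at 2.43 ± 0.90. SEMA7A (0.82 ± 0.49), PLXND1 (0.71 ± 0.37), NTN4 (0.448 ± 0.32) and SEMA3A (0.445 ± 0.04) came next and did not differ beyond their spread. The remaining members averaged at most 0.436 RPKM in WT Bru-seq, the value of SEMA4F. Of the 42 genes 16 read above 2 times the background in all 9 libraries, 14 in 5 to 8 libraries and 12 in 4 or fewer. NTNG1, SEMA5B, SEMA6D and UNC5D did so in 0 libraries, so these 4 genes were not told apart from background. PLXNA4 exceeded that level in 3 libraries, SEMA6A in 2 and SEMA5A in 1, which limits what their fold changes show.

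**Figure D1:**
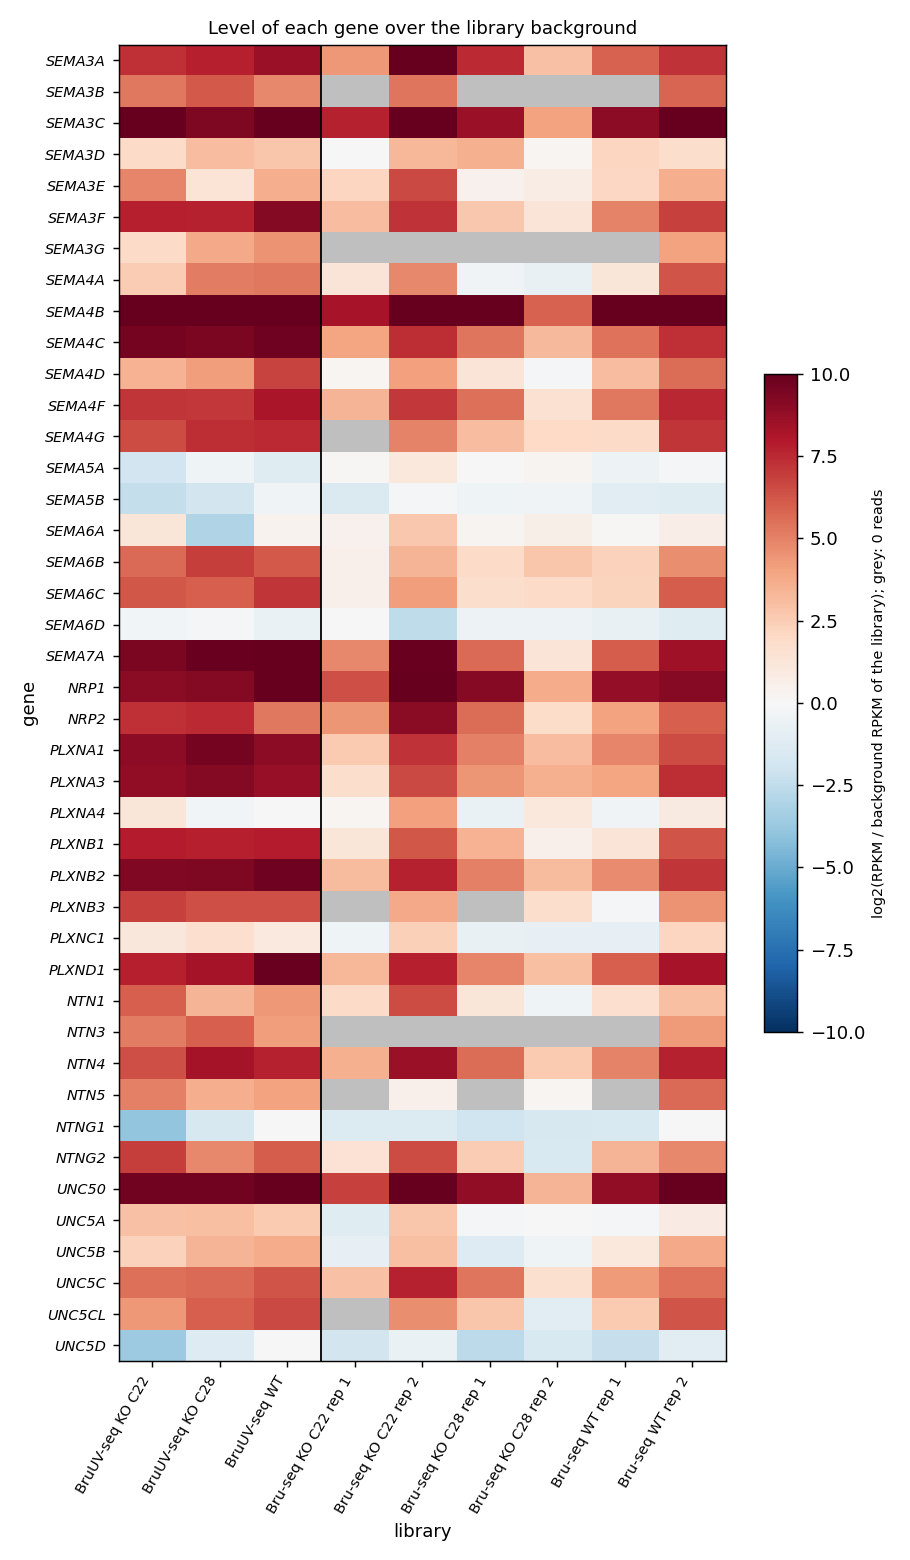
Level of each of the 42 genes (rows) in each of the 9 libraries (columns, BruUV-seq left of the line and Bru-seq right of it), as log2 of its RPKM over the background RPKM of that library, with colours ending at 10 and grey for 0 reads. SEMA4B, SEMA3C, NRP1 and UNC50 are dark red in nearly every column, NTNG1, SEMA5B, SEMA6D and UNC5D stay pale or blue, and the columns of Bru-seq KO C28 replicate 2 and KO C22 replicate 1 are paler than the others for most genes.

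Within several families 1 member carried most of the transcription. SEMA4B, a membrane-bound ligand, made up 82.4% to 93.4% of the summed class 4 RPKM in KO C22 libraries, 77.1% to 91.1% in KO C28 and 88.0% to 94.4% in WT. SEMA3C, a secreted ligand known from heart and vessel development, held 69.5% to 85.8% of the class 3 sum in KO C22, 55.3% to 66.7% in KO C28 and 69.0% to 83.5% in WT. The KO C28 libraries were thus the 3 lowest for this share. SEMA3A, the axon-repelling ligand that binds NRP1, held 30.1% and 26.1% of that sum in KO C28 Bru-seq and 18.7% in KO C28 BruUV-seq. Its share was 8.49% and 17.2% in KO C22 Bru-seq, 10.6% in KO C22 BruUV-seq and 9.87% to 11.5% in WT. Among the netrin receptors, UNC5C made up 78.1% to 93.2% of the UNC5A to UNC5D sum in KO C22, 59.2% to 96.5% in KO C28 and 73.5% to 85.5% in WT. The lowest of these, in Bru-seq KO C28 replicate 2, became 99.5% less the background.

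Across the 42 genes no change in line passed the test, and the leading values were NTN1 and NRP2 in KO C22 and NRP2 in KO C28. Fold changes come from a single edgeR quasi-likelihood fit of the 9 libraries with terms for line and assay (n = 3 libraries per line), with Benjamini-Hochberg adjustment at 0.05 over the 20819 genes tested. In KO C22 against WT, 0 of the 40 tested members passed (0.178% of all genes did), and 4 were higher and 2 lower at an unadjusted p under 0.05, against 3.2% and 2.66% of all genes. In KO C28 against WT 0 of 40 passed (0.125% of all genes did), with 4 higher and 1 lower at the unadjusted level, against 7.55% and 2.91% of all genes. The shares of members at that level were 10.0% higher and 5.0% lower in KO C22, and 10.0% higher and 2.5% lower in KO C28. Those of KO C28 lay near the shares of all genes. Those of KO C22 lay above them but rest on 4 and 2 members, and the difference was not tested. The median log2 fold change of the members was 0.13 in KO C22 and 0.31 in KO C28, beside 0.02 and -0.06 over all genes. Neither sign held throughout: scaled by library size alone the KO C22 median was -0.05 (-0.16 over all genes), and without Bru-seq KO C28 replicate 2 the KO C28 median was -0.28 over 41 tested members. DESeq2 passed NTN1 and NRP2 in KO C22, among 348 of the 20819 genes. In KO C28 it passed NRP2, SEMA3D, SEMA5A and PLXNA4, among 711 of the 20819. Because Bru-seq reads are from whole cultures, fewer cells with a transcript and less transcription per cell cannot be told apart. Both comparisons share the same WT libraries.

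**Figure D2:**
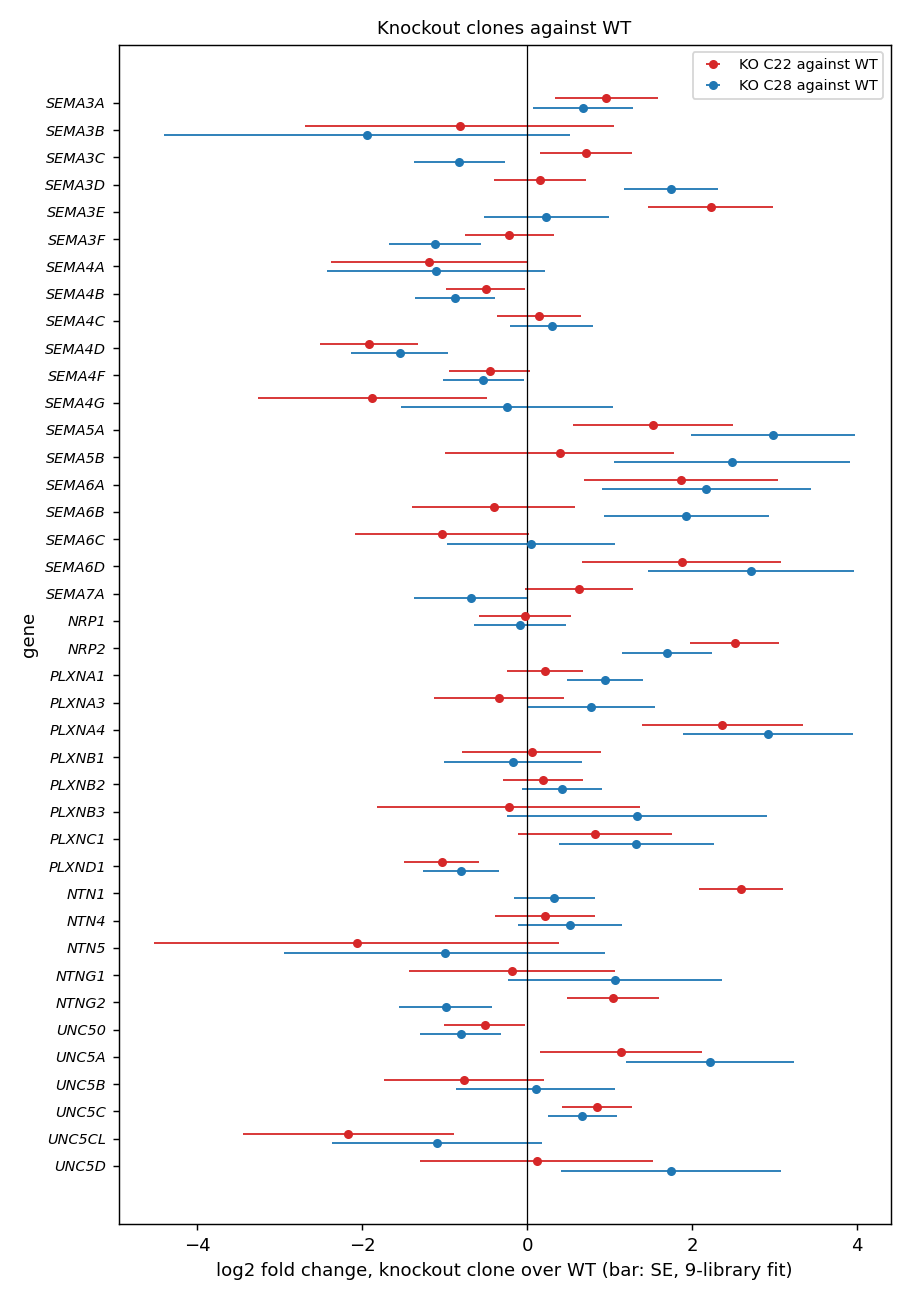
Log2 fold change of the 40 tested genes (rows) in KO C22 (upper, red) and KO C28 (lower, blue) over WT in the 9-library fit, with bars of 1 SE. NTN1 stands at 2.59 in KO C22 and 0.33 in KO C28, NRP2 lies right of 0 and SEMA4D left of 0 in both, and the widest bars belong to genes with few reads.

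Without Bru-seq KO C28 replicate 2, the library that stood apart, 4 members passed in KO C22 against WT. The log2 fold change with which NTN1 then rose was 2.59 (SE 0.37, adjusted p = 0.0140), that of SEMA3E 2.22 (SE 0.36, adjusted p = 0.0260), that of PLXNA4 2.39 (SE 0.44, adjusted p = 0.0456) and that of NRP2 2.53 (SE 0.46, adjusted p = 0.0473). The fold changes were close to those with that library (2.59, 2.22, 2.36 and 2.52), while the standard errors were smaller. In KO C28 against WT 0 members passed without it. These values are those of edgeR's quasi-likelihood test, and the same exclusion raised the count over all genes to 142 (0.646%) in KO C22 and 67 (0.305%) in KO C28, against 37 and 26. PLXNA4 read near the background in Bru-seq KO C22 replicate 1 and below it in Bru-seq WT replicate 1, which limits what its fold change shows.

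NTN1, the founding netrin and ligand of DCC and the UNC5 receptors (ENSG00000065320.8, chromosome 17, 9021542 to 9244000, plus strand), was the member with the lowest p in KO C22. It stood at 25.7 and 52.5 CPM in KO C22 Bru-seq and 47.9 CPM in KO C22 BruUV-seq, 4.52 and 13.7 CPM in KO C28 Bru-seq and 7.86 CPM in KO C28 BruUV-seq, against 6.03 and 7.08 CPM in WT Bru-seq and 7.79 CPM in WT BruUV-seq. All 3 KO C22 libraries lay above every other library, and the KO C28 libraries spread around those of WT. In KO C22 the log2 fold change against WT was 2.59 (SE 0.51, adjusted p = 0.0812), and in KO C28 it was 0.33 (SE 0.49, adjusted p = 0.825). With the background subtracted, an alternative chosen after seeing the data, it was 2.74 (SE 0.90) in KO C22. In the Bru-seq libraries alone (n = 2 per line) it was 2.56 (SE 0.77), with an edgeR adjusted p of 1. NTN4, a netrin of basement membranes that binds laminins and is the most transcribed netrin here, stood at 46.5 and 140.2 CPM in KO C22 Bru-seq and 38.8 CPM in KO C22 BruUV-seq, 58.0 and 66.4 CPM in KO C28 Bru-seq and 144 CPM in KO C28 BruUV-seq, against 35.6 and 109.5 CPM in WT Bru-seq and 47.7 CPM in WT BruUV-seq. The Bru-seq replicates of KO C22 and of WT lay further apart than the means of the lines, and KO C22 lay at 0.22 (SE 0.61) and KO C28 at 0.52 (SE 0.63) against WT on the log2 scale. As a share of the summed RPKM of both netrins, NTN1 made up 24.9% and 18.3% in KO C22 Bru-seq and 42.5% in KO C22 BruUV-seq, 4.46%, 11.0% and 3.16% in the same libraries of KO C28, and 9.22%, 3.73% and 8.92% in those of WT. Less the background, Bru-seq KO C28 replicate 2 had 0% NTN1.

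NRP2, the neuropilin known for binding SEMA3F and VEGFC (ENSG00000118257.16, chromosome 2, 205682500 to 205798133, plus strand), stood at 73.0 and 158 CPM in KO C22 Bru-seq and 60.4 CPM in KO C22 BruUV-seq, 48.8 and 33.3 CPM in KO C28 Bru-seq and 69.4 CPM in KO C28 BruUV-seq, against 15.7 and 28.1 CPM in WT Bru-seq and 8.04 CPM in WT BruUV-seq. All 6 knockout libraries lay above the 3 WT libraries, the closest pair being 33.3 CPM in Bru-seq KO C28 replicate 2 and 28.1 CPM in Bru-seq WT replicate 2. In RPKM this pair read 0.224 and 0.198, with backgrounds of 0.0627 and 0.00322 RPKM. Less the background this KO C28 library lies below this WT library, so the separation of all 6 holds only before subtraction. KO C22 thus lay at a log2 fold change of 2.52 (SE 0.54, adjusted p = 0.125) and KO C28 at 1.70 (SE 0.54, adjusted p = 0.436). Without Bru-seq KO C28 replicate 2 it was 2.09 (SE 0.52, adjusted p = 0.255) in KO C28. NRP1, the neuropilin that binds SEMA3A and VEGFA, stood at 422 and 645 CPM in KO C22 Bru-seq and 283 CPM in KO C22 BruUV-seq, 783 and 168 CPM in KO C28 Bru-seq and 319 CPM in KO C28 BruUV-seq, against 577 and 347 CPM in WT Bru-seq and 397 CPM in WT BruUV-seq. Its values overlapped between the lines, and KO C22 lay at -0.02 (SE 0.56) and KO C28 at -0.08 (SE 0.56) against WT on the log2 scale. NRP2 accordingly made up 19.2%, 25.2% and 22.6% of the summed neuropilin RPKM in KO C22 (Bru-seq replicates 1 and 2, then BruUV-seq), 7.87%, 21.3% and 23.0% in KO C28 and 3.60%, 9.97% and 2.70% in WT. NRP1 remained the larger of the pair in every library.

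**Figure D3:**
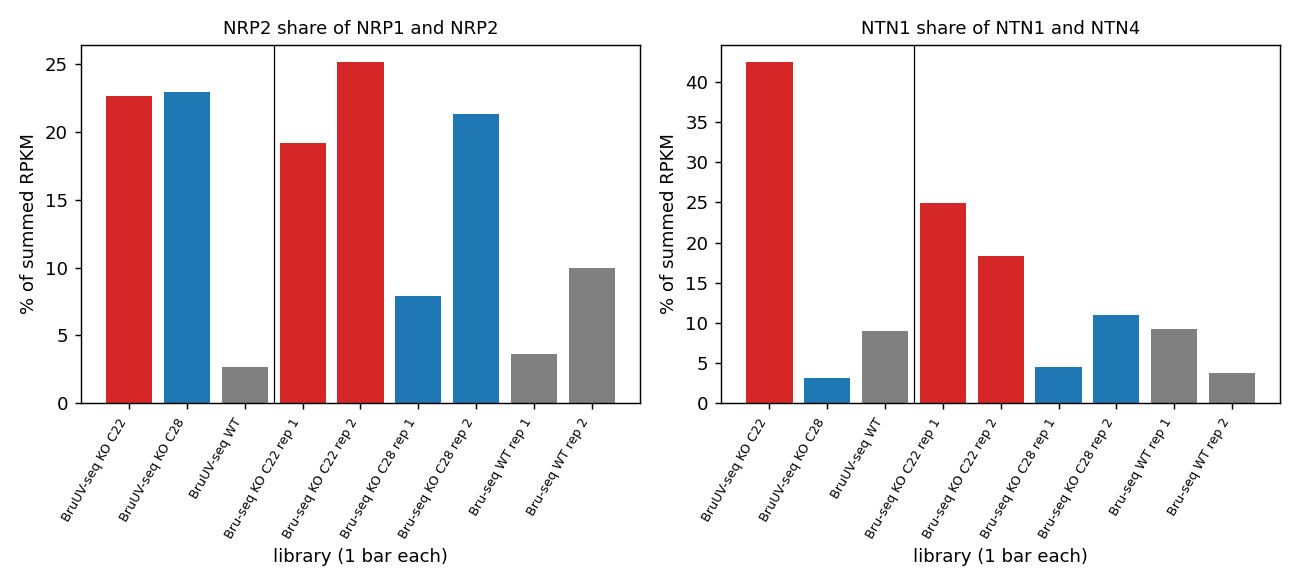
NRP2 as a percent of the summed RPKM of NRP1 and NRP2 (left) and NTN1 as a percent of the summed RPKM of NTN1 and NTN4 (right), with 1 bar per library, KO C22 red, KO C28 blue and WT grey, and BruUV-seq left of the line. The KO C22 bars lie at 19.2% to 25.2% for NRP2 and 18.3% to 42.5% for NTN1, and the WT bars at 2.70% to 9.97% and 3.73% to 9.22%.

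Of the 7 secreted class 3 semaphorins, SEMA3E and SEMA3D had the lowest p. SEMA3E, known as a direct ligand of PLXND1 (ENSG00000170381.12, chromosome 7, 83363906 to 83649010, minus strand), stood at 38.5 and 74.0 CPM in KO C22 Bru-seq and 29.1 CPM in KO C22 BruUV-seq, 3.37 and 37.8 CPM in KO C28 Bru-seq and 2.58 CPM in KO C28 BruUV-seq, against 9.96 and 13.9 CPM in WT Bru-seq and 6.31 CPM in WT BruUV-seq. The KO C22 libraries lay above those of WT. In KO C28, Bru-seq replicate 2 was high in CPM but read 0.103 RPKM, under 2 times its background of 0.0627 RPKM. The other KO C28 libraries lay below WT, with Bru-seq replicate 1 at 0.0101 RPKM, near its background of 0.00755 RPKM. Against WT, KO C22 had a log2 fold change of 2.22 (SE 0.76, adjusted p = 0.575) and KO C28 one of 0.23 (SE 0.76, adjusted p = 0.925). Without Bru-seq KO C28 replicate 2 the KO C28 value was -1.57 (SE 0.42, adjusted p = 0.325). SEMA3D, a class 3 ligand with known roles in the heart and vessels, stood at 6.03 and 5.14 CPM in KO C22 Bru-seq and 2.39 CPM in KO C22 BruUV-seq, 19.9 and 17.2 CPM in KO C28 Bru-seq and 5.67 CPM in KO C28 BruUV-seq, against 7.04 and 2.58 CPM in WT Bru-seq and 2.32 CPM in WT BruUV-seq. Within each assay the KO C28 libraries were the highest. In Bru-seq KO C28 replicate 2, however, SEMA3D read 0.0699 RPKM, near the background of 0.0627 RPKM. In Bru-seq KO C22 replicate 1 it read 0.0256 RPKM, near the background of 0.0245 RPKM. KO C28 had a log2 fold change of 1.74 (SE 0.57, adjusted p = 0.453), or 1.73 (SE 0.52) without its Bru-seq replicate 2, and KO C22 one of 0.15 (SE 0.56). SEMA3A stood at 149.7 and 623 CPM in KO C22 Bru-seq and 128 CPM in KO C22 BruUV-seq, 381 and 146 CPM in KO C28 Bru-seq and 178 CPM in KO C28 BruUV-seq, against 118 and 139 CPM in WT Bru-seq and 163 CPM in WT BruUV-seq. The KO C22 replicates differed by more than the lines did, and the log2 fold change in KO C22 was 0.96 (SE 0.62), and in KO C28 0.67 (SE 0.61). SEMA3F, the ligand of NRP2, had -0.22 (SE 0.54) in KO C22, against -1.12 (SE 0.56) for KO C28, and SEMA3B had few reads, at most 53 in a library.

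In the membrane-bound class 4, SEMA4D kept all libraries of both clones below those of WT. SEMA4D, a ligand of PLXNB1 (ENSG00000187764.11, chromosome 9, 89360787 to 89498130, minus strand), stood at 4.63 and 6.34 CPM in KO C22 Bru-seq and 5.08 CPM in KO C22 BruUV-seq, 2.99 and 9.63 CPM in KO C28 Bru-seq and 8.42 CPM in KO C28 BruUV-seq, against 10.0 and 26.0 CPM in WT Bru-seq and 25.8 CPM in WT BruUV-seq. All 6 knockout libraries lay below the 3 WT libraries, by a narrow margin between Bru-seq KO C28 replicate 2 and Bru-seq WT replicate 1. In Bru-seq KO C28 replicate 2, however, SEMA4D read 0.0546 RPKM, below the background of 0.0627 RPKM. In Bru-seq KO C22 replicate 1 it read 0.0274 RPKM, near the background of 0.0245 RPKM. In KO C22 the log2 fold change against WT was -1.92 (SE 0.59, adjusted p = 0.455), and in KO C28 it was -1.54 (SE 0.59, adjusted p = 0.461). Without Bru-seq KO C28 replicate 2 it was -1.89 (SE 0.48) for KO C22 and -2.03 (SE 0.58, adjusted p = 0.390) for KO C28. SEMA4B, the most transcribed member, stood at 395 and 620.1 CPM in KO C22 Bru-seq and 704 CPM in KO C22 BruUV-seq, 397 and 211 CPM in KO C28 Bru-seq and 863 CPM in KO C28 BruUV-seq, against 607 and 784 CPM in WT Bru-seq and 1082 CPM in WT BruUV-seq. Within each assay every knockout library but Bru-seq KO C22 replicate 2 lay below every WT library, and neither -0.50 (SE 0.48) for KO C22 nor -0.87 (SE 0.48) for KO C28 on the log2 scale passed. The other members of the class, SEMA4A, SEMA4C, SEMA4F and SEMA4G, had log2 fold changes from -1.88 to 0.14 in KO C22 and from -1.11 to 0.30 in KO C28.

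Among classes 5 to 7, SEMA5A and SEMA6A had their highest values in the libraries with the highest background. SEMA5A, which carries thrombospondin repeats beside its semaphorin domain, stood at 17 and 2.75 CPM in KO C22 Bru-seq and 0.462 CPM in KO C22 BruUV-seq, 4.33 and 50.5 CPM in KO C28 Bru-seq and 1.29 CPM in KO C28 BruUV-seq, against 2.97 and 1.72 CPM in WT Bru-seq and 0.379 CPM in WT BruUV-seq. Its highest libraries were Bru-seq KO C28 replicate 2 and KO C22 replicate 1, and it exceeded 2 times the background in 1 library. The log2 fold change in KO C28 was 2.98 (SE 1.00, adjusted p = 0.457), and 1.45 (SE 0.88) without Bru-seq replicate 2. SEMA6A, a ligand of A-type plexins, stood at 5.44 and 2.22 CPM in KO C22 Bru-seq and 1.00 CPM in KO C22 BruUV-seq, 1.40 and 15.5 CPM in KO C28 Bru-seq and 0.0561 CPM in KO C28 BruUV-seq, against 1.19 and 0.818 CPM in WT Bru-seq and 0.295 CPM in WT BruUV-seq. In KO C28 against WT its log2 fold change was 2.17 (SE 1.26) with that library and -0.28 (SE 0.88) without it. SEMA6B, also a class 6 ligand, stood at 0.754 and 0.487 CPM in KO C22 Bru-seq and 3.00 CPM in KO C22 BruUV-seq, 0.573 and 9.26 CPM in KO C28 Bru-seq and 7.02 CPM in KO C28 BruUV-seq, against 0.731 and 1.72 CPM in WT Bru-seq and 2.15 CPM in WT BruUV-seq. Its highest library was Bru-seq KO C28 replicate 2, and the other Bru-seq library of KO C28 lay below both of WT. SEMA7A, the lipid-anchored ligand of PLXNC1 and integrins, stood at 21.3 and 62.5 CPM in KO C22 Bru-seq and 57.6 CPM in KO C22 BruUV-seq, 11.1 and 4.88 CPM in KO C28 Bru-seq and 80.5 CPM in KO C28 BruUV-seq, against 14.2 and 35.9 CPM in WT Bru-seq and 50.9 CPM in WT BruUV-seq. KO C22 lay at 0.63 (SE 0.66) and KO C28 at -0.68 (SE 0.69) on the log2 scale, with spreads between replicates that exceed both.

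Of the 8 plexins, PLXND1 and PLXNA4 reached an unadjusted p under 0.05 against WT. PLXND1, the receptor of SEMA3E with a main role in vessels (ENSG00000004399.12, chromosome 3, 129555175 to 129606818, minus strand), stood at 15.9 and 29.3 CPM in KO C22 Bru-seq and 38.7 CPM in KO C22 BruUV-seq, 13.8 and 32.9 CPM in KO C28 Bru-seq and 57.8 CPM in KO C28 BruUV-seq, against 27.2 and 61.4 CPM in WT Bru-seq and 88.0 CPM in WT BruUV-seq. WT replicate 1 lay inside the range of the knockout Bru-seq libraries. KO C22 thus lay at a log2 fold change of -1.04 (SE 0.46, adjusted p = 0.823) and KO C28 at -0.80 (SE 0.46). In KO C22 the ligand SEMA3E and this receptor had fold changes of opposite sign. PLXNA4, a receptor of SEMA6A and, with NRP1, of SEMA3A, stood at 18.6 and 23.5 CPM in KO C22 Bru-seq and 4.08 CPM in KO C22 BruUV-seq, 2.93 and 90.1 CPM in KO C28 Bru-seq and 1.52 CPM in KO C28 BruUV-seq, against 3.56 and 3.89 CPM in WT Bru-seq and 0.926 CPM in WT BruUV-seq. It is 525 kb long, and in the Bru-seq libraries of KO C28 it gave 46 reads in replicate 1 and 739 in replicate 2. In KO C22 Bru-seq it read 0.0287 and 0.0290 RPKM, against backgrounds of 0.0245 and 0.0017 RPKM. In WT Bru-seq it read 0.00572 and 0.00605 RPKM, against backgrounds of 0.00711 and 0.00322 RPKM. Against WT, KO C22 had a log2 fold change of 2.36 (SE 0.98, adjusted p = 0.760) and KO C28 one of 2.92 (SE 1.03, adjusted p = 0.457), and the KO C28 value without Bru-seq replicate 2 was 0.19 (SE 0.49). The other 6 plexins had log2 fold changes from -0.34 to 0.82 in KO C22 and from -0.17 to 1.33 in KO C28.

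**Figure D4:**
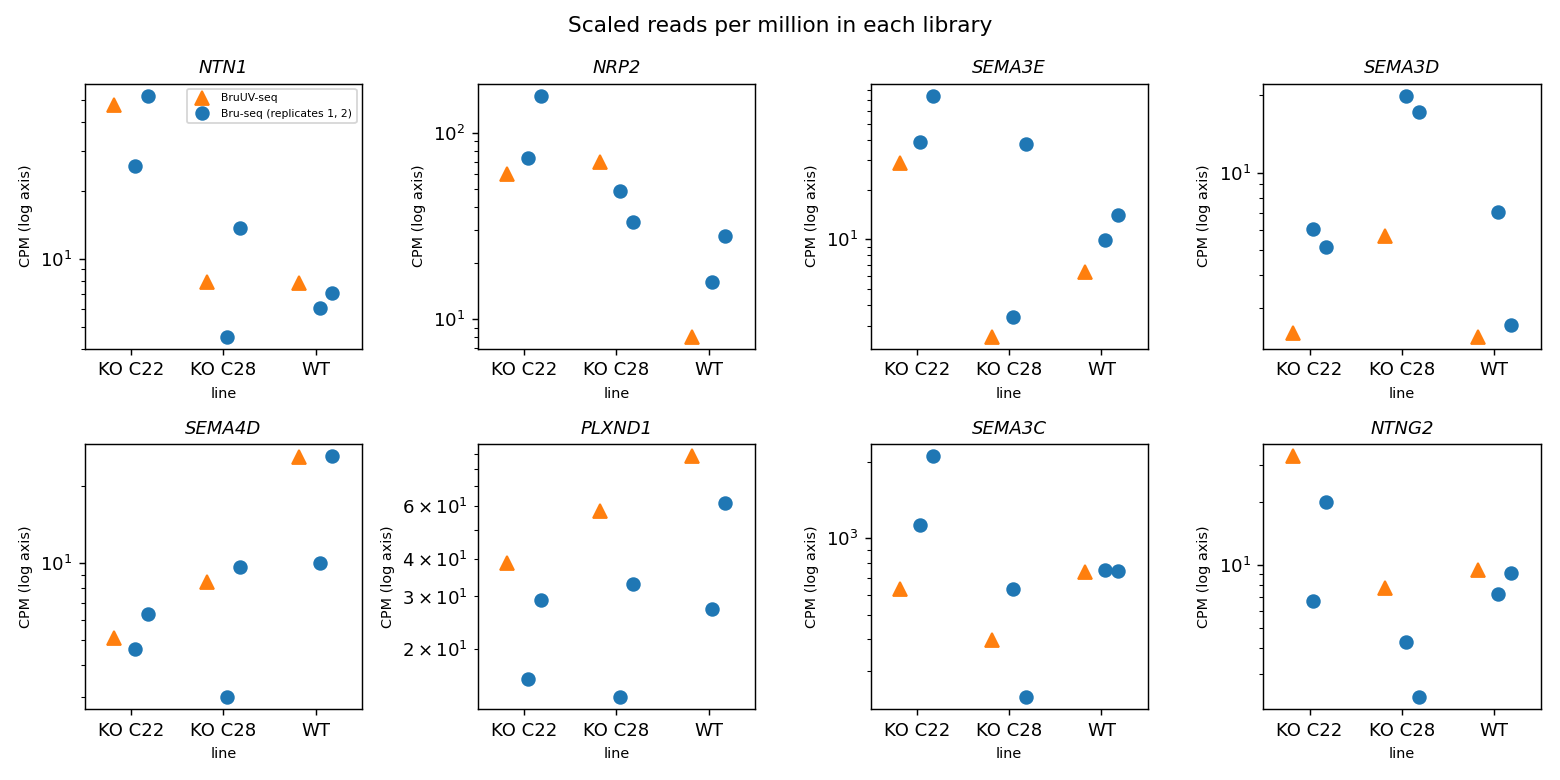
CPM (reads per M reads in genes, scaled by TMM) of 8 genes on log axes, with KO C22, KO C28 and WT from left to right, a triangle for the BruUV-seq library and circles for the Bru-seq replicates. NTN1 in KO C22 lies at 25.7 to 52.5 CPM above all other libraries, SEMA4D lies lower in the clones than in WT, and the KO C28 circles of SEMA3E lie apart at 3.37 and 37.8 CPM.

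UNC5C, the most transcribed UNC5 receptor, had a log2 fold change of 0.85 (SE 0.42) for KO C22 and of 0.67 (SE 0.42) for KO C28. UNC5A, UNC5B, UNC5D and UNC5CL ranged from -2.17 to 1.14 in KO C22 and from -1.09 to 2.22 in KO C28, with standard errors of 0.97 to 1.41, and none passed. DCC, the attractive netrin receptor, gave 22 to 687 reads, with the most in Bru-seq KO C28 replicate 2. NTNG2, a lipid-anchored netrin G that binds LRRC4 rather than DCC, stood at 6.68 and 19.9 CPM in KO C22 Bru-seq and 33.0 CPM in KO C22 BruUV-seq, 4.26 and 2.32 CPM in KO C28 Bru-seq and 7.75 CPM in KO C28 BruUV-seq, against 7.27 and 9.08 CPM in WT Bru-seq and 9.47 CPM in WT BruUV-seq. KO C22 held the highest values in both assays, although Bru-seq KO C22 replicate 1 lay below both WT replicates. On the log2 scale KO C22 lay at 1.04 (SE 0.56) and KO C28 at -0.99 (SE 0.56) against WT. UNC50, a Golgi membrane protein outside these families, stood at 33.9 and 32.1 CPM in KO C22 Bru-seq and 26.4 CPM in KO C22 BruUV-seq, 40.1 and 8.41 CPM in KO C28 Bru-seq and 26.6 CPM in KO C28 BruUV-seq, against 39.4 and 49.3 CPM in WT Bru-seq and 43.1 CPM in WT BruUV-seq.

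The clones were also set against each other. In KO C28 against KO C22, 0 of 40 members passed (0.0% of all genes did), and 2 were higher and 4 lower at an unadjusted p under 0.05 (5.0% and 10.0% of members, against 2.96% and 2.75% of all genes). DESeq2 passed NTN1 and NTNG2, both lower in KO C28, among 228 of the 20819 genes. By edgeR the log2 fold change of NTN1 was -2.26 (SE 0.51, adjusted p = 0.291), that of NTNG2 -2.03 (SE 0.57, adjusted p = 0.539), that of SEMA3E -1.99 (SE 0.77, adjusted p = 0.837) and that of SEMA3C -1.54 (SE 0.56, adjusted p = 0.830). SEMA3C stood at 1135 and 2110.2 CPM in KO C22 Bru-seq and 629 CPM in KO C22 BruUV-seq, 633 and 235 CPM in KO C28 Bru-seq and 396 CPM in KO C28 BruUV-seq, against 749 and 741 CPM in WT Bru-seq and 735 CPM in WT BruUV-seq. Its 3 lowest libraries were Bru-seq KO C28 replicate 2, KO C28 BruUV-seq and KO C22 BruUV-seq, the last just below Bru-seq KO C28 replicate 1. SEMA3D was higher in KO C28 by 1.59 (SE 0.57, adjusted p = 0.792) and SEMA6B by 2.34 (SE 1.04, adjusted p = 0.837). Without Bru-seq KO C28 replicate 2, SEMA3E alone passed (0.0819% of all genes did), at -3.79 (SE 0.46, adjusted p = 0.0370) by edgeR, NTN1 was at -2.87 (SE 0.44, adjusted p = 0.0661) and SEMA6B at 0.78 (SE 0.85), and PLXNA4 turned to -2.21 (SE 0.53). SEMA7A was at -1.31 (SE 0.71), at -0.71 (SE 0.69) without that library and at -2.42 (SE 0.82, adjusted p = 0.959) by edgeR in the Bru-seq libraries alone. NRP2 was at -0.82 (SE 0.53), -0.44 (SE 0.52) and -1.55 (SE 0.65, adjusted p = 0.959) by edgeR in the same 3 fits.

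Genes beside these members were read for their own values, having been picked by position after the members' values were seen, and some of them are given here. Those given include the largest fold changes found, so they do not describe the neighbours in general. STX8, 6.5 kb from NTN1, had a log2 fold change of 0.41 (SE 0.42) for KO C22 and of -0.46 (SE 0.42) for KO C28, and MYH10, on the other side of NTN1, 1.05 (SE 0.45) and -0.30 (SE 0.44). PARD3B, 62.3 kb from NRP2, had 1.04 (SE 0.53) for KO C22 and 0.56 (SE 0.52) for KO C28. INO80D, on the other side of NRP2, had 0.38 (SE 0.40) and -0.004 (SE 0.40). The synaptic scaffold gene PCLO, 201 kb from SEMA3E, had 1.91 (SE 0.37) and 1.31 (SE 0.37). SECISBP2, 1.1 kb from SEMA4D, had 0.11 (SE 0.39) and -0.69 (SE 0.39), and CKS2, 44.1 kb from SEMA4D, had -1.43 (SE 0.54) and -1.38 (SE 0.53). PODXL, 567 kb from PLXNA4, had 2.31 (SE 0.55) for KO C22 and 4.16 (SE 0.60) for KO C28. CHCHD3, nearer to PLXNA4 at 136 kb, had 0.29 (SE 0.58) and -0.29 (SE 0.58). MAGI2-AS3, 1271 kb from SEMA3C, had -3.20 (SE 0.48) and -2.99 (SE 0.48), and GNAI1, 523 kb from SEMA3C, had -0.71 (SE 0.49) and -2.24 (SE 0.52). UBXN6, 84.8 kb from SEMA6B, had 0.66 (SE 0.65) and 1.97 (SE 0.67). No more than 0.89% of any member's length lay under another gene of its strand.

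Promoter sequences are shown for 4 of the members at an unadjusted p under 0.05 in KO C22 against WT, one pair higher (NRP2, SEMA3E) and one pair lower (SEMA4D, PLXND1). NTN1 had no entry in the table used, and PLXNA4 was left out because its nearest entry starts 72218 bases from the start in the deposited tables. They are from RefSeq on GRCh38.p14, run from 250 bases before to 50 after the annotated start nearest to that of the deposited tables, and read 5′ to 3′ on the gene's strand, with each CG dinucleotide in capitals. CG is shown because CpG-rich promoters are known as places where H3K27 methylation is set.
NRP2, chr2:205682251-205682550, plus strand: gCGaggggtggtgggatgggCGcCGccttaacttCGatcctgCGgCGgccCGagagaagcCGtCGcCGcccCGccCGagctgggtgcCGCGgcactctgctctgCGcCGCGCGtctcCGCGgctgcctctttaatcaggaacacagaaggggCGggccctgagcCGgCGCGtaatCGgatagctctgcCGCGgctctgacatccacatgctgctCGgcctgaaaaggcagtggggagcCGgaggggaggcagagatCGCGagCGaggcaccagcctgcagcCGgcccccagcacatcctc
SEMA3E, chr7:83649090-83649389, minus strand: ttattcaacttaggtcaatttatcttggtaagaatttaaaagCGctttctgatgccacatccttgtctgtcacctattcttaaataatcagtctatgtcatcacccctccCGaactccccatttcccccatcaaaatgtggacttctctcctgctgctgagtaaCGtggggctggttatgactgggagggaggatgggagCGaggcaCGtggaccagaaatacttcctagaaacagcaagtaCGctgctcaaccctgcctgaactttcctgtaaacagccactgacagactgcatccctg
SEMA4D, chr9:89495607-89495906, minus strand: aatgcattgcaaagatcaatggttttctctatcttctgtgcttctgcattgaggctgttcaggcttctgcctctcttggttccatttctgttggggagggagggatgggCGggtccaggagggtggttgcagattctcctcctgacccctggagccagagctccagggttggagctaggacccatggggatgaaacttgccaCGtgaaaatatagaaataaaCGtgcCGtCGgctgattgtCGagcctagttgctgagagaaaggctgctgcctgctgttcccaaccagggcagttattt
PLXND1, chr3:129606627-129606926, minus strand: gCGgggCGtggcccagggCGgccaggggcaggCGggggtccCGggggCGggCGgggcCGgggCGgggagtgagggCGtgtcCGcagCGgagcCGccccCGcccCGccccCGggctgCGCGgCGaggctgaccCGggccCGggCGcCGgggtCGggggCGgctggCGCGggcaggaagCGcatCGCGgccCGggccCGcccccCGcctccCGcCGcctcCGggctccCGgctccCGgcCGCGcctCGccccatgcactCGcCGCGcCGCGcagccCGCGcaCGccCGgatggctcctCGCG
The NRP2 window holds 33 CG and that of PLXND1 52, while those of SEMA3E and SEMA4D hold 6 each. Of the 35116 promoters of the same length, 96.0% hold at least 1 CG and the median is 14, and 82.8%, 99.2% and 33.7% hold fewer than NRP2, PLXND1 and either of the CG-poor pair. So each pair has 1 CG-rich and 1 CG-poor window. The starts lie 1, 129, 2474 and 142 bases from those of the deposited tables for NRP2, SEMA3E, SEMA4D and PLXND1, so the SEMA4D window belongs to another start than the tables'. Of the 42 genes 33 had a window that could be used, with a median of 20 CG at the nearest start. TATAAA, read on both strands, is in 11.5% of all promoters and in 1 window of these genes, at a second SEMA3E start.

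Partners of these families were taken as lists of pathway genes. Of 26 co-receptors and membrane partners (among them DCC, FLRT and LRRC4 genes), 22 were tested and 0 passed in either clone. At an unadjusted p under 0.05, 2 were higher and 1 lower in KO C22, where 3.2% and 2.66% of all genes were, and 8 were higher and 0 lower in KO C28, where 7.55% and 2.91% of all genes were. Of these 8, 7 were highest in Bru-seq KO C28 replicate 2, and 6 of the 7 read under 2 times the background there. Without that library 2 were higher and 1 lower in KO C28, against 2.45% and 2.92% of all genes. FLRT3, an adhesion protein that binds UNC5 receptors, had 1.83 (SE 0.64, adjusted p = 0.589) for KO C22 and 2.10 (SE 0.64, adjusted p = 0.396) for KO C28, and 2.21 (SE 0.56, adjusted p = 0.258) for KO C28 without that library. Of 45 transducers inside the cell 44 were tested and 0 passed. At the unadjusted level 3 were higher and 1 lower in KO C22, and 3 higher and 2 lower in KO C28, with all 3 higher ones at their highest in Bru-seq KO C28 replicate 2. Without that library the counts were 7 and 1 in KO C22 (5.36% and 5.38% of all genes) and 0 and 1 in KO C28. ABLIM1, an actin-binding protein, stood at 165 and 396 CPM in KO C22 Bru-seq and 196 CPM in KO C22 BruUV-seq, 356 and 99.2 CPM in KO C28 Bru-seq and 253 CPM in KO C28 BruUV-seq, against 797 and 608 CPM in WT Bru-seq and 830.3 CPM in WT BruUV-seq. All 6 knockout libraries lay below those of WT, with -1.57 (SE 0.56, adjusted p = 0.616) for KO C22 and -1.66 (SE 0.56, adjusted p = 0.457) for KO C28 on the log2 scale. DAPK1, a kinase linked to UNC5 receptors, lay at 2.79 (SE 0.98) for KO C22 and at 2.70 (SE 0.98) for KO C28. Its highest library was Bru-seq KO C28 replicate 2, where it read below the background, and without it DAPK1 lay at 2.77 (SE 0.71) for KO C22 and 1.13 (SE 0.80) for KO C28. Of the 4 other ligands of neuropilins, all tested, 0 passed, and VEGFA had 0.99 (SE 0.43) in KO C28.

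Of 32 genes of other axon guidance families 28 were tested, and 1 passed, in KO C22. EPHB6, an ephrin receptor without kinase activity, stood at 12.9 and 46.2 CPM in KO C22 Bru-seq and 156 CPM in KO C22 BruUV-seq, 3.12 and 4.51 CPM in KO C28 Bru-seq and 7.47 CPM in KO C28 BruUV-seq, against 2.83 and 2.95 CPM in WT Bru-seq and 4.97 CPM in WT BruUV-seq. The KO C22 libraries lay above all others, and EPHB6 rose, its log2 fold change in KO C22 being 3.94 (SE 0.60, adjusted p = 0.0271). Against KO C22 the KO C28 value was -3.49 (SE 0.59, adjusted p = 0.168). At an unadjusted p under 0.05, 6 of the 28 were higher and 0 lower in KO C22 (3.2% and 2.66% of all genes), and 6 were higher and 0 lower in KO C28 (7.55% and 2.91% of all genes). Of the 6 in KO C28, 4 were highest in Bru-seq KO C28 replicate 2 and read under 2 times the background there. Without that library 6 were higher in KO C22 and 2 in KO C28, 0 were lower in either clone, and EPHB6 still passed in KO C22, at 3.92 (SE 0.55, adjusted p = 0.0140) by edgeR. EPHB2 had 2.01 (SE 0.48, adjusted p = 0.199) and SLIT3 1.77 (SE 0.51, adjusted p = 0.385) in KO C22. The median log2 fold changes of the tested genes in KO C22 were 0.20 for the membrane partners, 0.35 for the transducers, 0.33 for the other neuropilin ligands and 0.57 for the other guidance families, beside 0.02 over all genes. In KO C28 they were 0.67, -0.09, 0.21 and 0.50 in the same order, beside -0.06 over all genes, and without Bru-seq KO C28 replicate 2 they were -0.10, 0.04, 0.16 and 0.27.

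UV light was the condition under which members passed the test. BruUV-seq against Bru-seq compared 3 with 6 libraries with line in the fit, and 2 of 40 members passed, both higher (0.447% of all genes passed). PLXNA1, a receptor for class 3 and class 6 semaphorins (ENSG00000114554.11, chromosome 3, 126988594 to 127037392, plus strand), stood at 79.1, 129 and 42.8 CPM in BruUV-seq of KO C22, KO C28 and WT, against 9.10 and 19.3 CPM in Bru-seq of KO C22, 13.9 and 33.4 CPM in Bru-seq of KO C28 and 12.1 and 18.1 CPM in Bru-seq of WT. PLXNB2, a receptor for class 4 semaphorins (ENSG00000196576.14, chromosome 22, 50274979 to 50307627, minus strand), stood at 66.6, 71.2 and 48.5 CPM in BruUV-seq of KO C22, KO C28 and WT, against 9.04 and 17.7 CPM in Bru-seq of KO C22, 9.36 and 23.4 CPM in Bru-seq of KO C28 and 7.50 and 18.2 CPM in Bru-seq of WT. For both genes every BruUV-seq library lay above every Bru-seq library. PLXNA1 rose, at a log2 fold change of 2.16 (SE 0.38, adjusted p = 0.0452), and so did PLXNB2, at 2.12 (SE 0.40, adjusted p = 0.0498), values just inside the threshold. With other scalings (RLE, upper quartile or library size alone) 0 members passed, and the range over all settings was 0 to 13. Leaving out any BruUV-seq library, or replicate 1 of Bru-seq KO C22, KO C28 or WT, also gave 0 members. Without Bru-seq KO C28 replicate 2, 7 members passed, beside 3305 of 21986 genes. Without Bru-seq KO C22 replicate 2 it was 4, beside 494 of 23136 genes, and without Bru-seq WT replicate 2 it was 3, beside 142 of 22974. At an unadjusted p under 0.05, 9 members were higher and 4 lower (22.5% and 10.0%), against 14.0% and 11.1% of all genes. The higher ones were PLXNA1, PLXNB2, SEMA4C, SEMA3F, PLXNB1, PLXNA3, SEMA7A, PLXND1 and SEMA4B, and the lower ones SEMA5A, PLXNA4, SEMA3D and SEMA6A.

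These values ordered by gene length. UV lesions are known to stop polymerases, so that reads gather near the starts of genes and long gene bodies lose them. Of the 18 tested members under 50 kb 16 were higher in BruUV-seq, and of the 13 of 150 kb or more 1 was (NTN1, at 0.12 (SE 0.42)). These counts were 16 and 0 or 1 under the 3 other scalings, 16 and 5 with the gene-length offset, and 16 of 17 and 2 of 10 with the background subtracted. By length, 9 of 10 members under 20 kb were higher with a median log2 fold change of 1.53, beside 69.1% and 0.57 for all genes of that length. From 20 to 50 kb 7 of 8 were higher with a median of 1.75, beside 50.6% and 0.01. From 50 to 150 kb it was 4 of 9 and -0.11, beside 27.6% and -0.49, and from 150 kb 1 of 13 and -1.39, beside 9.73% and -1.11. Spearman's rho between length and log2 fold change was -0.82 over the 40 members and -0.47 over the 20819 genes. These are descriptions across genes of the same libraries, and genes are not independent replicates. The ligands split by length, with SEMA4C at 2.05 (SE 0.42) (10.3 kb) and SEMA5A at -3.77 (SE 0.98) (507 kb), and so did the plexins, with PLXNB1 at 2.26 (SE 0.70) and PLXNA4 at -2.91 (SE 0.96). Without Bru-seq KO C28 replicate 2, SEMA5A was at -2.90 (SE 0.82) and PLXNA4 at -1.86 (SE 0.42). Of the members of 150 kb or more, NTNG1, SEMA6D, UNC5D, SEMA5A, PLXNA4 and PLXNC1 exceeded 2 times the background in 4 or fewer libraries. The background reached 0.0627 RPKM in Bru-seq and 0.00317 RPKM in BruUV-seq, which limits what the fold changes of these genes show. NRP1 and NRP2 were at -0.56 (SE 0.50) and -0.45 (SE 0.47).

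**Figure D5:**
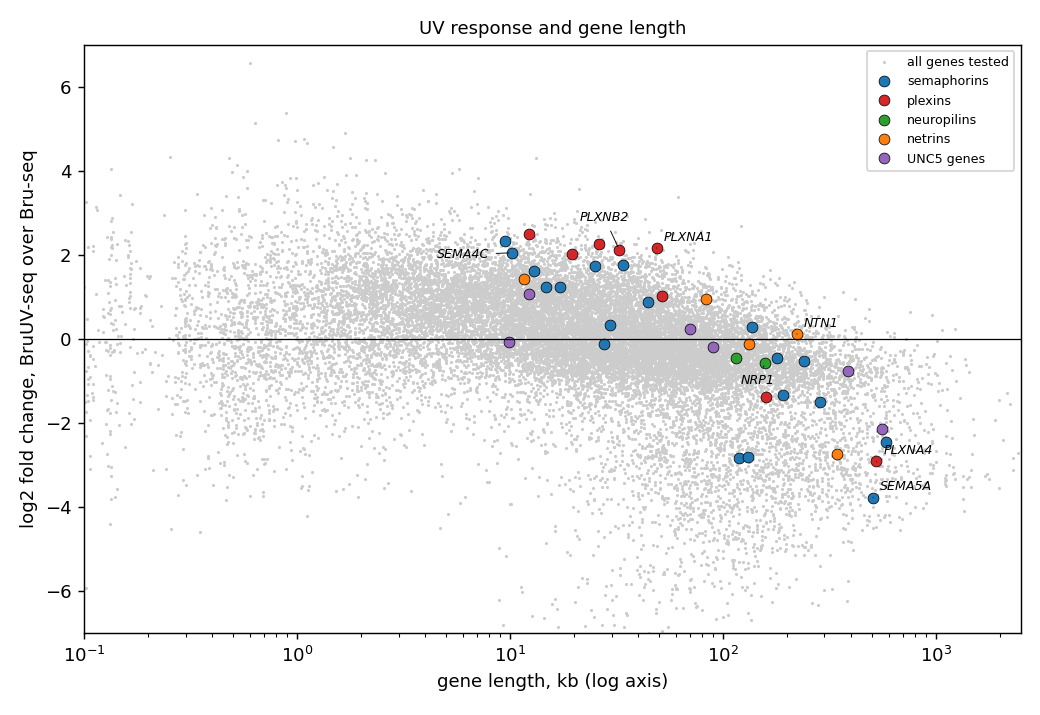
Log2 fold change of BruUV-seq over Bru-seq against gene length in kb (log axis), with grey points for all genes tested that lie within the axes and coloured points for the 40 tested members by family. Members under 50 kb lie mostly above 0, and those of 150 kb or more lie below 0 apart from NTN1, down to -3.77.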

How the data were processed

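The authors deposited 1 table per library with, per gene, an expected count (estimated reads over the gene body) and an RPKM value, as its values show; the libraries were stranded per the labels. Per the submitters' processing notes, CASAVA 1.8.2, Bowtie2 2.3.3, STAR 2.5.3a and bedtools 2.16.2 were used with hg38 and GRCh38 named; their roles and the annotation release are not given in the sources used here. Strands were kept apart, since SEMA6A-AS1, inside SEMA6A, had 576 reads in Bru-seq WT replicate 1 against 26 for SEMA6A.

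The deposited expected counts were rounded and fitted with edgeR 4.0.16 (R 4.3.3; filterByExpr, TMM, quasi-likelihood test) over 9 libraries with line and assay as terms, and p-values were adjusted over 20819 genes by Benjamini-Hochberg at 0.05. CPM values are TMM-scaled, and RPKM values are as deposited. Alternatives were other scalings, filters, DESeq2 1.42.0, limma-voom (limma 3.58.1), a gene-length offset, the Bru-seq libraries alone (22827 genes), each library left out, and background subtraction and pathway lists without Bru-seq KO C28 replicate 2, both added after seeing the data. The test was run on simulated counts.

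Values in every library are given for members past the threshold in any comparison, at an unadjusted p under 0.05 in any line comparison (9 or 6 libraries), or among the 8 highest in WT Bru-seq. Pathway genes are named if they passed, and up to 4 per list at an unadjusted p under 0.05. Members, lists and tests were chosen with earlier results of these data known. Same-numbered libraries were not taken as pairs: residuals of KO C22 with WT, of KO C28 with WT and of KO C28 with KO C22 had correlations of 0.46, 0.04 and -0.38.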

Additional observations from a re-analysis of the deposited data

How the results depend on the processing

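No called value reversed its direction, while several settings decided which members passed. The main counts were 0 in KO C22 against WT, 0 in KO C28 against WT, 0 in KO C28 against KO C22 and 2 in BruUV-seq against Bru-seq. Without the filter on low counts they were 4, 4, 1 and 11, and with DESeq2 2, 4, 2 and 13. With limma-voom BruUV-seq gave 5 members. Under RLE factors, upper-quartile factors, library size alone, a mean of at least 50 counts, the gene-length offset or background subtraction it gave 0 members. Leaving out each library in turn gave 0 to 4, 0 to 0, 0 to 1 and 0 to 7 members, the highest without Bru-seq KO C28 replicate 2. Without that library 142, 67, 18 and 3305 of 21986 genes passed. The replicate block gave 1 member in KO C22 (NTN1) and 8 in BruUV-seq, with 0 in the other comparisons, and crossed numbers for KO C28 gave 2, 0, 0 and 10. Over all genes, the main counts were 37, 26, 0 and 93. The counts were 272, 1100, 230 and 2326 without the filter, 348, 711, 228 and 3941 with DESeq2, 13, 12, 2 and 0 after background subtraction, 46, 49, 0 and 903 with the block, and 108, 92, 2 and 2118 with the crossed block. For BruUV-seq they were 1 with RLE, 0 with upper-quartile factors, library size alone or the length offset, 21 at a mean of at least 50 counts and 640 with limma-voom. At that mean the line comparisons gave 50, 42 and 0 genes, the length offset gave 41, 28 and 2, and the Bru-seq libraries alone gave 1, 1 and 0. Library size alone moved the median log2 fold change of all genes to -0.16 in KO C22, 0.13 in KO C28 and 0.38 between the clones, and RLE and upper-quartile factors moved that of BruUV-seq to -0.10 and -0.15. Of 585 alternative values for the 30 member results at an unadjusted p under 0.05, 507 stayed on the same side of an adjusted p of 0.05, 54 came under it, 24 went above it and 0 changed sign. The cause of these differences was not tested. Depth limits the members of few reads: 12 of 42 exceeded 2 times the background in 4 or fewer libraries.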
